A study of Rattus norvegicus with 8 samples.

Results

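The conjugation enzymes of rat liver were followed through chronic ethanol feeding, inhibition of miR-21 and the first day after partial hepatectomy (PHx). They are the UDP-glucuronosyltransferases (UGT), the sulfotransferases (SULT), the cytosolic glutathione transferases (GST) and the microsomal glutathione transferases (MGST). A gene was a member if its only symbol in the array's annotation began with Ugt1, Ugt2, Ugt3, Sult1, Sult2, Gsta, Gstm, Gstp, Gstt, Gsto, Gstk or Mgst, which gave 44 of the 18166 genes with a probe set of a single name. They comprised 9 UGT, 9 SULT, 22 cytosolic GST and 4 MGST genes. The cytosolic GST group holds all GST genes other than MGST, so it includes the class kappa gene Gstk1, found in mitochondria and peroxisomes. Measured values played no part in that rule. A mean log2 level of at least 5 over the 8 arrays was required for testing, and 32 of the 44 members reached it.

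These enzymes carry out the second phase of detoxification, in which a water-soluble group is joined to a drug, a steroid, bilirubin, a bile acid or a reactive product so that it can leave the cell. UGT enzymes of the endoplasmic reticulum add glucuronic acid from UDP-glucuronate, SULT enzymes of the cytosol add sulfate from the activated donor PAPS, and GST and MGST enzymes add glutathione or use it to reduce peroxides. The hepatocyte is the main site of all these reactions, and many of the genes are known targets of the receptors CAR, PXR and AhR and of the oxidant-responsive factor NRF2.

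Liver RNA came from male Sprague-Dawley rats on a chronic ethanol diet or on a carbohydrate diet given as pair feeding, and either treated with AM21 or left untreated. AM21 is an oligonucleotide with locked nucleic acid bases, antisense to miR-21, given into the peritoneum at 7.5 mg/kg at 72 h before the operation and again just after it. Every rat lost 70% of its liver, and the tissue removed (0 h) was paired with liver of the same animals 24 h later. The study asked what miR-21 does during liver regeneration under chronic ethanol. Each of the 8 combinations is 1 array of RNA pooled from 3 rats (AM21) or 4 rats (untreated), so there are 4 pools with 2 arrays each and the spread between animals was not measured. No sham-operated rats and no control oligonucleotide were analysed here: PHx cannot be told apart from surgery and elapsed time, and AM21 cannot be told apart from cohort, since its rats carry a separate range of identifiers.

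Levels are log2 values made by the authors with RMA, and differences between groups are in log2 units with their standard error (SE) from limma and p-values adjusted by Benjamini-Hochberg over the 8690 genes tested. A difference passed where the adjusted p was under 0.05. Levels of different genes are not set against each other, since each probe set binds with its own strength. The 8 hepatocyte markers measured, among them the plasma protein genes Alb and Ttr, averaged from 11.41 to 11.47 on the 24 h arrays and from 11.42 to 11.52 on the 0 h arrays.

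The 12 members below the minimum were Sult1c2al1, Sult1d1, Sult2a2, Sult2b1, Ugt2a1, Ugt2b7, Ugt3a1, Gsta3l1, Gsta4l1, Gstm6, Gstm6l and Gsto2, with means between 2.38 and 4.42, a range not shown to lie above background. Of these, 1 reached 5 on any array. That was Sult1c2al1, which stood at 5.53 and 6.13 in the pair-fed AM21 and pair-fed untreated livers at 0 h. The tested members had means between 5.25 and 11.78. Gsta3 and Gstm3 entered the test only through their ethanol-fed arrays, as their pair-fed means lay under 5. No UGT1 gene is among the members, because the array reads its UGT1 names with 1 probe set that carries 8 of them.

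The first comparison set livers 24 h after PHx against 0 h livers of the same rats. Some members of each superfamily fell, and no member rose. The largest falls were those of the class pi gene Gstp3, the class mu gene Gstm7, the class alpha gene Gsta6 and the sulfotransferase gene Sult1c3, each lower at 24 h in all 4 pools. Of the 32 members tested, 15 fell and 0 rose, where 12.8% of all 8690 genes fell, 15.3% rose and 28.1% changed in either direction. The median difference was -0.40 over the tested members and 0.01 over all genes, and within the pools the members' median ran from -0.44 to -0.35. In total 19 members were lower in all 4 pools and 1 was higher, against 22.8% and 26.2% of all genes, or 49% with one sign in either direction. The 24 h and 0 h arrays did not overlap for 13 members, against 31.1% of all genes.

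Gstp3 had levels of 10.05, 8.78, 9.75 and 9.08 in 24 h livers, against 11.22, 11.53, 11.19 and 11.35 in 0 h livers, with the pools always in the order ethanol-fed AM21, ethanol-fed untreated, pair-fed AM21 and pair-fed untreated. It averaged 9.41 ± 0.59 in 24 h livers and 11.32 ± 0.16 in 0 h livers (SD, n = 4 arrays each), a difference of -1.91 ± 0.26 or 3.75-fold (adjusted p = 0.00374). The 2 sets of arrays were far apart, and at 24 h the untreated pools were the lowest. In a bulk measurement, fewer cells of a type and less RNA per cell cannot be told apart.

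Gstp1, the second class pi gene and in rat a widely used marker of early liver tumour foci, lies close to Gstp3 on chromosome 1. It stood at 6.35, 6.27, 5.75 and 6.03 in 24 h livers, against 6.72, 6.38, 6.60 and 6.69 in 0 h livers, and fell by 0.50 ± 0.13 (adjusted p = 0.0348). Its highest 24 h array lay just under its lowest 0 h array. Both class pi genes fell, with the larger estimate for Gstp3. Probes of paralogs can share signal, and how far the probe sets of Gstp1 and Gstp3 do so was not tested. Their promoters are shown because these related genes both fell. Each window covers 250 bases before to 50 bases after a transcription start in RefSeq annotation of the GRCr8 assembly. Capitals mark matches on either strand to 3 short motifs, namely TGACNNNGC (the core of the antioxidant response element bound by NRF2), GCGTG (the core of the xenobiotic response element bound by AhR) and AGGTCA (the core hexamer read by many nuclear receptors), which can overlap each other.
Gstp3, chr1:210787635-210787934, minus strand: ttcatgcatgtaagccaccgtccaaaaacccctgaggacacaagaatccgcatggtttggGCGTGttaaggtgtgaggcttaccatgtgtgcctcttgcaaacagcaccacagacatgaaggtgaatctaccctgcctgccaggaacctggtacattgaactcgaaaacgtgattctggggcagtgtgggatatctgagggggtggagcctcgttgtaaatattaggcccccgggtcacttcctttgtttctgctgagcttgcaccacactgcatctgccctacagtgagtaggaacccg
Gstp1, chr1:210769656-210769955, minus strand: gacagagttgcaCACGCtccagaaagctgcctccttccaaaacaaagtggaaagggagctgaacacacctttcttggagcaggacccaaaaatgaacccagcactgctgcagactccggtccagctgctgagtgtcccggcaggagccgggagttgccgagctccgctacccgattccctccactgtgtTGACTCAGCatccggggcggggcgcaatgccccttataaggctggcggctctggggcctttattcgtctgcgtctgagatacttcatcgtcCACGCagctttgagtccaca
The Gstp3 window holds 1 match, to GCGTG, while the Gstp1 window holds 3 matches, including TGACTCAGC. Of the 43 windows found for 40 of the members, 7 (16.3%) hold TGACNNNGC, against 12.1% of all 33469 windows. GCGTG is found in 13 (30.2%), against 29.7%, and AGGTCA in 5 (11.6%), against 16.2%.

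Among the class mu genes, which lie in a cluster on chromosome 2, 2 of 6 tested fell. Gstm7 had levels of 7.89, 7.57, 6.84 and 7.05 in 24 h livers, against 9.45, 9.57, 9.02 and 8.61 in 0 h livers, a difference of -1.83 ± 0.13 or 3.54-fold (adjusted p = 0.00125). No 24 h array reached the lowest 0 h array, and the pool changes ranged from -2.19 to -1.56. Gstm2, a major class mu subunit of rat liver, fell by 0.47 ± 0.08 (adjusted p = 0.00769) with levels of 10.55, 10.58, 10.43 and 10.55 in 24 h livers, against 11.05, 11.00, 10.91 and 11.03 in 0 h livers. Gstm1 did not pass, at -0.10 ± 0.08 (adjusted p = 0.425), and neither did Gstm4, Gstm5 and Gstm3, with estimates of -0.06, -0.13 and 0.21. The promoter of Gstm7 is given as that of the class mu gene with the largest fall, and its 1 match, TGACACAGC, ends just before the start site.
Gstm7, chr2:198260270-198260569, minus strand: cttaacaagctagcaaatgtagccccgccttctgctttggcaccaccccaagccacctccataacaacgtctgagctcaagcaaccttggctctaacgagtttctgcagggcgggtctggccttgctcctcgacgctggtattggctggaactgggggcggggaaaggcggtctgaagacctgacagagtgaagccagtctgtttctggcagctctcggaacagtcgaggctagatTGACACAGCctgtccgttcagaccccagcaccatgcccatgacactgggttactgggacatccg

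Among the class alpha genes 3 of 6 tested fell. Gsta6 had levels of 5.93, 5.77, 5.29 and 5.39 in 24 h livers, against 7.29, 7.21, 6.83 and 6.94 in 0 h livers. It was lower by a similar amount in each pool, from -1.54 to -1.36, with a fitted difference of -1.47 ± 0.08 or 2.77-fold (adjusted p = 0.000645). Gsta4, the main enzyme for the lipid peroxidation product 4-hydroxynonenal, fell by 0.56 ± 0.09 (adjusted p = 0.00781). Its levels were 8.15, 7.68, 7.26 and 7.54 in 24 h livers, against 8.66, 8.40, 7.90 and 7.89 in 0 h livers, so the ranges overlapped although every pool was lower. Gsta1, a subunit of the bilirubin-binding protein ligandin, fell by 0.42 ± 0.08 (adjusted p = 0.0125). Its close relative Gsta2 lay just outside the threshold with -0.42 ± 0.13 (adjusted p = 0.0504), as did Gsta5 further out with -0.18 ± 0.10 (adjusted p = 0.212).

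Of the remaining classes grouped with the cytosolic GST genes, the theta gene Gstt2 fell by 0.45 ± 0.13 (adjusted p = 0.0381). The omega gene Gsto1, whose enzyme reduces dehydroascorbate, differed by -0.15 ± 0.11 and the kappa gene Gstk1, found in mitochondria and peroxisomes, by -0.08 ± 0.08, with adjusted p of 0.363 and 0.494. In all, 8 of 17 tested genes of the cytosolic GST group, which counts Gstk1, fell.

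Of the 4 microsomal genes 3 fell. Mgst3l1 had levels of 6.50, 6.53, 6.45 and 6.58 in 24 h livers, against 7.90, 7.42, 7.25 and 7.39 in 0 h livers, a difference of -0.98 ± 0.12 (adjusted p = 0.00306). The 24 h arrays lay close together and below every 0 h array, and at 0 h the ethanol-fed AM21 pool was the highest. Mgst3, which makes leukotriene C4 and reduces lipid hydroperoxides, fell by 0.78 ± 0.16 (adjusted p = 0.0142), and Mgst2, which also makes leukotriene C4, by 0.46 ± 0.09 (adjusted p = 0.0139). Mgst1, a membrane enzyme of the endoplasmic reticulum and the outer mitochondrial membrane, differed by -0.02 ± 0.08 (adjusted p = 0.874), and its 8 arrays lay between 11.73 and 11.83.

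Among the sulfotransferases 2 of 5 tested fell. Sult1c3 had levels of 9.59, 8.83, 9.10 and 8.92 in 24 h livers, against 10.48, 10.17, 10.51 and 10.63 in 0 h livers, a difference of -1.34 ± 0.14 or 2.52-fold (adjusted p = 0.00192). The groups did not overlap. Sult1c2a, of the same subfamily, fell by 1.12 ± 0.23 (adjusted p = 0.0139), and its pool changes ranged from -2.02 in the pair-fed untreated pool to -0.52 in the ethanol-fed AM21 pool. Sult1a1, which sulfates phenols, was at -0.26 ± 0.10 (adjusted p = 0.0901) and did not pass. Sult1b1, which sulfates thyroid hormones, had one of the 4 positive estimates among the members, 0.25 ± 0.11 (adjusted p = 0.123), and was higher at 24 h in 4 of 4 pools without passing. Sult2a1, which sulfates hydroxysteroids and bile acids, was at -0.36 ± 0.16 (adjusted p = 0.142).

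Of 6 tested UGT2 genes 2 fell. Ugt2b35 had levels of 9.69, 9.64, 9.51 and 9.54 in 24 h livers, against 10.17, 10.19, 10.11 and 10.42 in 0 h livers, a difference of -0.63 ± 0.10 (adjusted p = 0.0056). Ugt2b10 fell by 0.45 ± 0.11 (adjusted p = 0.0272). The largest positive estimates among all members were those of Gsta3, 0.54 ± 0.23 (adjusted p = 0.125), and Ugt2b34l1, 0.47 ± 0.21 (adjusted p = 0.148), each higher in 3 of 4 pools and neither past the threshold. The pair-fed arrays of Gsta3 were under 5 at both times. Without the ethanol-fed untreated pool Gsta3 passed as higher (adjusted p = 0.0457), and after quantile normalization Sult1b1 rose by 0.33 (adjusted p = 0.041).

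**Figure D1:**
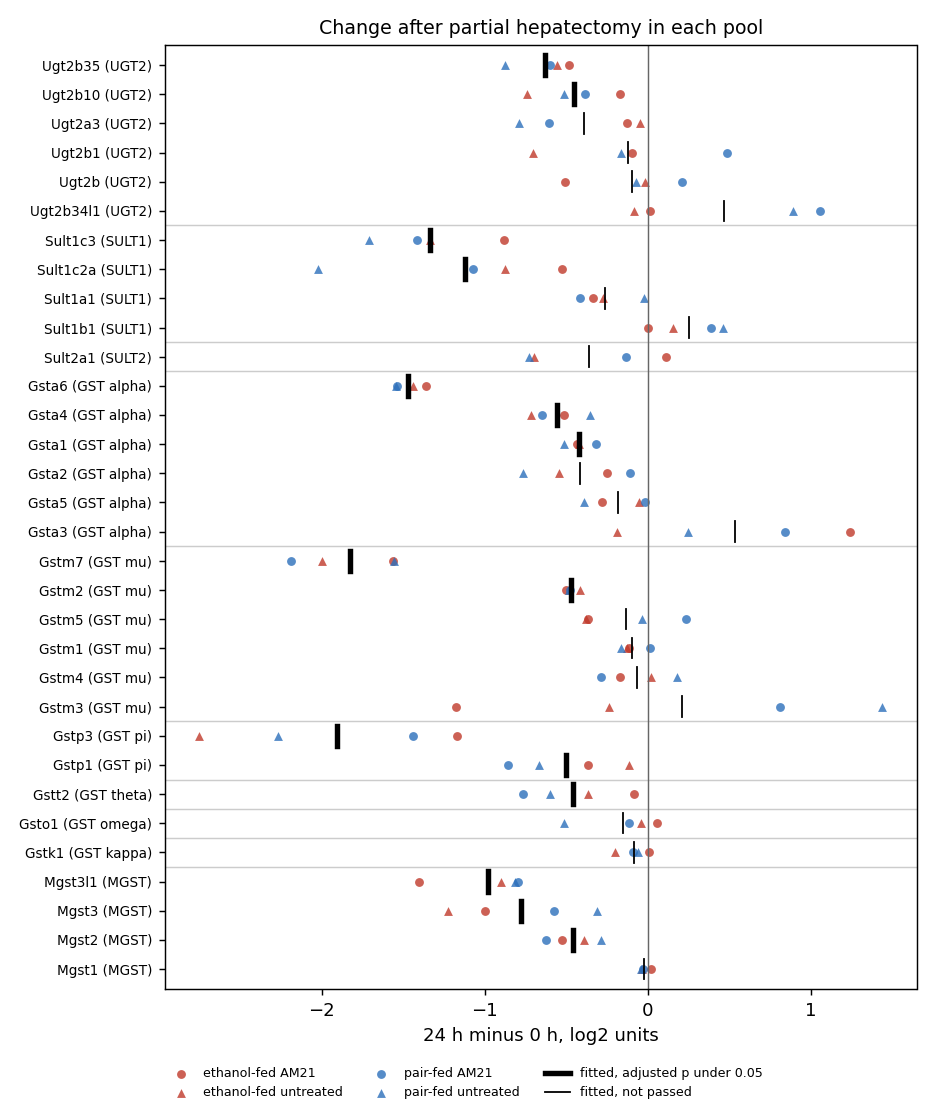
Difference between 24 h and 0 h (log2 units, x axis) for the 32 tested members, listed by family on the y axis. Points are the 4 pools and the vertical tick is the fitted difference, drawn thick where the adjusted p was under 0.05. The thick ticks all lie left of 0, from -1.91 for Gstp3 to -0.42 for Gsta1, while Mgst1 sits on 0.

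**Figure D2:**
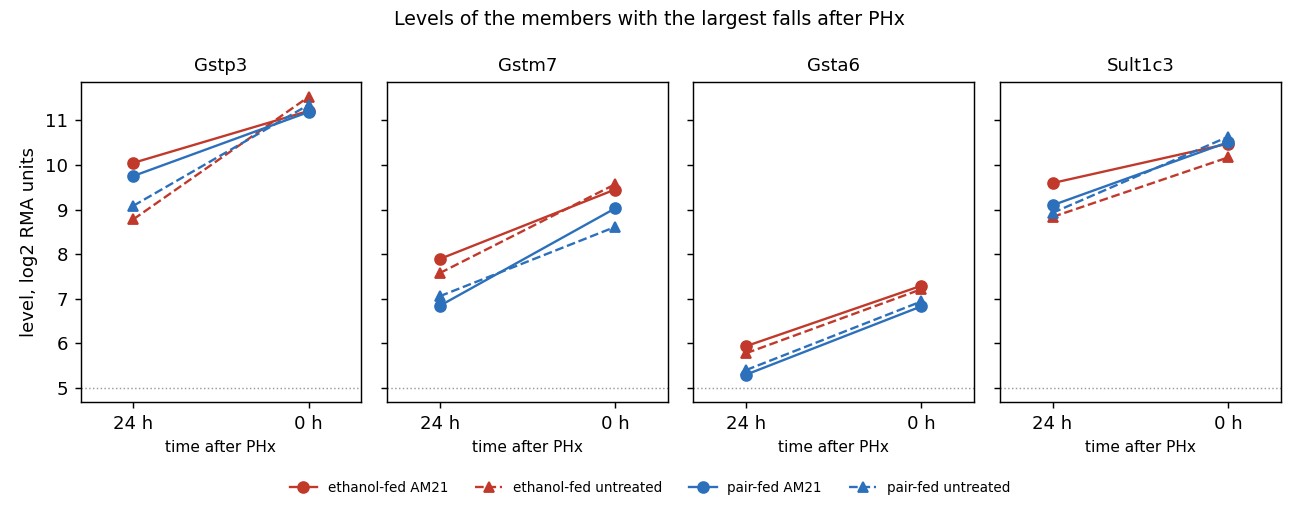
Log2 RMA level (y axis) at 24 h and 0 h after PHx (x axis) of Gstp3, Gstm7, Gsta6 and Sult1c3, the members with the largest fitted falls. Each line is 1 pool, red for ethanol-fed and blue for pair-fed, solid for AM21 and dashed for untreated, and the dotted line marks the level minimum of 5. All 4 lines of each gene are lower at 24 h, and for Gstp3 the 2 untreated pools reach the lowest 24 h levels.

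Gstp3, Gstm7, Gsta6, Gsta4, Gstm2, Sult1c3, Ugt2b35 and Mgst3l1 passed in all 9 alternative fits. The call was lost without the ethanol-fed AM21 pool for Gsta1, Gstp1, Mgst2 and Mgst3, without the pair-fed AM21 pool for Gstp1, Gstt2, Sult1c2a and Ugt2b10, without the pair-fed untreated pool for Gstp1, Gstt2 and Ugt2b10, and without the ethanol-fed untreated pool for Gsta1, Gstt2 and Ugt2b10, with adjusted p up to 0.116. Without the level minimum it was lost for Gstp1, Gstt2 and Ugt2b10.

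Genes listed around the supply of the conjugation reactions did not share one direction after PHx. A place on a list does not show that a gene supplies the member enzymes. Of 5 genes listed for UDP-glucuronate supply 1 rose, the endoplasmic reticulum transporter gene Slc35b1, by 1.14 ± 0.11, and its role in that supply was not tested. Ugdh, which makes UDP-glucuronate, was at 0.05 ± 0.10 (adjusted p = 0.765). Of 10 genes listed for activated sulfate, Bpnt1, which clears the spent donor, rose by 0.44 ± 0.11. Cdo1, on the route from cysteine to sulfate, and the PAPS transporter gene Slc35b3 fell by 0.52 ± 0.08 and 0.40 ± 0.11. Whether Slc35b3 bears on the supply of the cytosolic SULT enzymes was not tested. The PAPS synthase gene Papss2 was at -0.04 ± 0.10 (adjusted p = 0.795). Of 9 glutathione genes, Gsr, which regenerates glutathione, rose by 0.32 ± 0.09 and Oplah, of the 5-oxoproline step, fell by 0.42 ± 0.10. Gclc, of the rate-limiting step, was at -0.21 ± 0.17 (adjusted p = 0.402). Of 13 other phase II genes, such as methyl- and acyltransferases, 7 fell and 0 rose. They included Acsm5 at -1.40 ± 0.11, Glyat at -1.21 ± 0.17 and Gnmt at -1.10 ± 0.09, and Inmt, whose 24 h mean of 3.59 was under the level minimum, against 6.53 in 0 h livers. Of 5 genes listed as deconjugating enzymes 1 rose, the arylsulfatase gene Arsb, by 0.51 (adjusted p = 0.00628). Whether its enzyme acts on products of the SULT members was not tested.

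Of 21 genes for regulators of conjugation genes, 7 fell and 0 rose after PHx. They included the fatty acid receptor gene Ppara at -1.49 ± 0.16, the hepatocyte factor gene Cebpa at -1.03 ± 0.14, the glucocorticoid receptor gene Nr3c1 at -0.82 ± 0.13 and the bile acid receptor gene Nr1h4 at -0.61 ± 0.11. The PXR gene Nr1i2 fell by 0.45 ± 0.12 (adjusted p = 0.0384). Those of CAR (Nr1i3), AhR (Ahr) and NRF2 (Nfe2l2) did not pass, at -0.28 ± 0.22, -0.21 ± 0.10 and 0.35 ± 0.18, with adjusted p of 0.381, 0.159 and 0.19. Of 19 other classic targets of these receptors and NRF2, 5 rose and 2 fell, where 15.3% of all 8690 genes rose and 12.8% fell. In this list Gpx2, Ces2c and Cyp2b1 had a mean under 5 either at 0 h or at 24 h, so nothing is read from these counts. The quinone reductase gene Nqo1 rose by 2.15 ± 0.09. The glutathione peroxidase gene Gpx2 also rose, to a mean of 6.67 in 24 h livers, against 4.36 in 0 h livers, which is under the level minimum. The P450 gene Cyp2b2 fell by 2.74 ± 0.48. Cyp2b1, whose probes can share signal with it, fell to a mean of 4.38 in 24 h livers, under the level minimum, against 7.30 in 0 h livers. Of 8 male-biased genes of rat liver 4 fell and 0 rose, among them Cyp2c11 by 1.11 ± 0.26. Of 4 female-biased genes 1 rose and 1 fell, the second being the prolactin receptor gene Prlr, by 1.27 ± 0.15.

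Some markers of other cell types and of the cell cycle also passed in the same comparison. Of 8 hepatocyte markers none passed, with a median of -0.06. All 8 cell division markers rose, with mean list levels of 8.58 to 9.58 on the 24 h arrays and 4.99 to 6.48 on the 0 h arrays. Of these, Cdk1 and Ccnb1 had 0 h means under 5 and were tested only through their 24 h arrays. The sizes of their rises are uncertain. Of 4 neutrophil and monocyte markers tested 2 rose (S100a8 and S100a9, both with 0 h means under 5), with list levels of 4.83 to 5.58 at 24 h and 4.36 to 4.67 at 0 h, and the defining marker Mpo was under 5. Of 6 endothelial markers 3 fell, of 12 Kupffer cell markers 1 rose and 3 fell, and of 9 stellate cell markers 2 rose and 3 fell. Of 4 cholangiocyte and 2 erythroid markers none passed. The lymphocyte markers tested, Cd4 and Ccl5, fell. Cd3e, Cd3d, Cd8a, Cd79a, Ms4a1, Nkg7 and Gzmb were under 5, so no fall of lymphocytes is read from those calls. Over all 8690 genes 15.3% rose, 12.8% fell and 28.1% changed in either direction. Whether the numbers of these cells changed, and the part of these marker differences in the members' falls, was not tested.

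The second comparison set ethanol-fed against pair-fed livers, averaged over AM21 and time. Ugt2a3, whose human counterpart conjugates bile acids, was higher in ethanol-fed livers. Gsta3, a class alpha gene whose mouse namesake detoxifies aflatoxin epoxide, lay above the level minimum in every ethanol-fed array and under it in every pair-fed array. Of the 32 members tested 2 were higher and 0 lower, against 0.38% and 0.0806% of all genes, or 0.46% in either direction. Most other members leaned the same way without passing. Estimates were positive for 26 members, against 4679 of all 8690 genes, with a median of 0.17 against 0.01 over all genes. In all 4 matched pairs of arrays 13 members were higher, against 15% of all genes. None was lower in all 4, against 8.99% of all genes, or 24% with one sign in either direction. For 7 members (Gsta3, Ugt2a3, Ugt2b1, Ugt2b34l1, Gstm3, Gstm4 and Gstm5) the diets did not overlap, against 4.87% of all genes. Gsta3 and Gstm3 are in these counts only because their ethanol-fed arrays lifted them over the level minimum, so nothing is read from the counts against the shares of all genes.

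Gsta3 had levels of 7.42, 6.19, 7.25 and 7.44 in ethanol-fed livers, against 4.70, 3.86, 3.54 and 3.29 in pair-fed livers, with arrays always in the order AM21 at 24 h, AM21 at 0 h, untreated at 24 h and untreated at 0 h. Mean levels (± SD over 4 arrays) were 7.07 ± 0.60 with ethanol and 3.85 ± 0.62 with pair feeding, a fitted difference of 3.23 ± 0.33 (adjusted p = 0.0139). Every pair-fed array was under 5 and so not shown to lie above background, and the gene was tested only through its ethanol-fed arrays. The size of its difference is therefore uncertain and no fold is given. RefSeq places 2 transcription starts at this gene, and both windows are printed because Gsta3 is 1 of the 2 members that passed. The window of one start holds TGACTTCGC, a match to the NRF2 core, and that of the other holds GCGTG.
Gsta3, chr9:31154739-31155038, plus strand: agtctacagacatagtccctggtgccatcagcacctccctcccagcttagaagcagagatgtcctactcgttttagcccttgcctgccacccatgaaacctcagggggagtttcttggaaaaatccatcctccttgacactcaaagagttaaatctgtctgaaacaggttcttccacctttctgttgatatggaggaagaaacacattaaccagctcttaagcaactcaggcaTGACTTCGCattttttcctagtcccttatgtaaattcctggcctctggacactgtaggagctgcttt
Gsta3, chr9:31166793-31167092, plus strand: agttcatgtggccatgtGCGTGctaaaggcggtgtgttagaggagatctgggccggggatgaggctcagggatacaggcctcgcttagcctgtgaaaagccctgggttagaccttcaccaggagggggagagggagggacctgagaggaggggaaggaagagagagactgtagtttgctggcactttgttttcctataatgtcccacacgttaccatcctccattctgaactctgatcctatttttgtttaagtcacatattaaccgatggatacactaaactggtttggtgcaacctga

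Ugt2a3 had levels of 8.71, 8.84, 9.17 and 9.22 in ethanol-fed livers, against 7.33, 7.93, 7.91 and 8.70 in pair-fed livers. Mean levels were 8.98 ± 0.25 with ethanol and 7.97 ± 0.56 with pair feeding, a difference of 1.01 ± 0.14 or 2.02-fold (adjusted p = 0.0322), and the groups were separated only narrowly. Its promoter window is shown as that of the second member to pass, and it holds 1 match, TGACCT, that hexamer read on the other strand.
Ugt2a3, chr14:20851720-20852019, plus strand: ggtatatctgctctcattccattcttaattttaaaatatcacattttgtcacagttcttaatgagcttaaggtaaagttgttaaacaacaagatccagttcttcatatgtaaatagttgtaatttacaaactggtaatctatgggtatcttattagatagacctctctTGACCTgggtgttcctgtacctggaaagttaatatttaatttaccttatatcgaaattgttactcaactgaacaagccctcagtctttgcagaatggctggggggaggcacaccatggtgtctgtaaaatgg

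**Figure D3:**
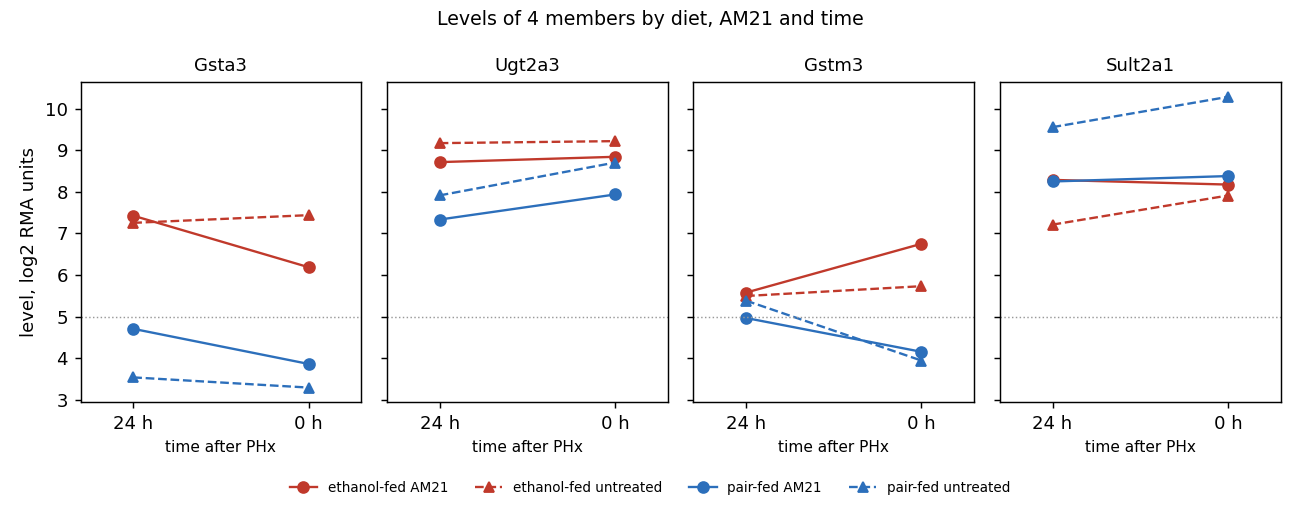
Log2 RMA level (y axis) of Gsta3, Ugt2a3, Gstm3 and Sult2a1 in ethanol-fed (red) and pair-fed (blue) livers, by AM21 treatment and time. Gsta3 and Ugt2a3 passed the diet test and Gstm3 and Sult2a1 did not, and the dotted line marks the level minimum of 5. The 4 pair-fed arrays of Gsta3 lie below it, and the pair-fed untreated arrays of Sult2a1 stand above its other 6.

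Among the other UGT2 genes, Ugt2b34l1 had levels of 7.62, 7.61, 8.37 and 8.46 in ethanol-fed livers, against 7.05, 5.99, 7.55 and 6.66 in pair-fed livers, an estimate of 1.20 ± 0.20 (adjusted p = 0.0564). Ugt2b1, which conjugates testosterone and morphine in rat, stood at 9.79, 9.88, 9.55 and 10.25 in ethanol-fed livers, against 9.28, 8.80, 8.86 and 9.03 in pair-fed livers, an estimate of 0.87 ± 0.17 (adjusted p = 0.0773). Both were higher in 4 of 4 pairs without passing. Ugt2b35, Ugt2b10 and Ugt2b had estimates of 0.03 ± 0.10, 0.18 ± 0.11 and -0.29 ± 0.30. For Ugt2b the diets differed by 0.11 and 0.83 in the AM21 pairs at 24 h and 0 h. In the untreated pairs they differed by -1.01 and -1.07.

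The class mu genes Gstm7 and Gstm5 were close to the threshold, at 0.74 ± 0.12 (adjusted p = 0.0564) and 0.77 ± 0.14 (adjusted p = 0.0684). Gstm3 did not pass, with an estimate of 1.28 ± 0.38 (adjusted p = 0.18) and levels of 5.58, 6.75, 5.49 and 5.73 in ethanol-fed livers, against 4.96, 4.15, 5.38 and 3.94 in pair-fed livers. Of its pair-fed arrays 3 were under 5, and the gene was tested only through its ethanol-fed arrays, so the size of that estimate is uncertain. The diets lay further apart at 0 h than at 24 h in both pairs, against pair-fed 0 h arrays not shown to lie above background. Gstm4 was at 0.30 ± 0.12 (adjusted p = 0.279), higher in 4 of 4 pairs and with no overlap of the diets. Gstm1 was at -0.03 ± 0.09 and Gstm2 at 0.06 ± 0.08. Of the class alpha genes other than Gsta3, Gsta4 was at 0.57 ± 0.13 (adjusted p = 0.0956) and Gsta6 at 0.44 ± 0.09 (adjusted p = 0.0796). Gstk1 was at 0.39 ± 0.08 (adjusted p = 0.0846), and each of these 3 was higher in 4 of 4 pairs. The microsomal genes had no estimate above 0.30 ± 0.15, that of Mgst3.

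The sulfotransferases had the negative estimates of largest size. Sult2a1 was at -1.22 ± 0.43 (adjusted p = 0.247), with levels of 8.29, 8.17, 7.21 and 7.91 in ethanol-fed livers, against 8.25, 8.38, 9.55 and 10.28 in pair-fed livers. The diets differed by 0.04 and -0.20 in the AM21 pairs at 24 h and 0 h, and by -2.34 and -2.37 in the untreated pairs. Sult1c2a was at -0.68 ± 0.30 (adjusted p = 0.328), with its lowest pair, -1.84, in untreated livers at 0 h.

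**Figure D4:**
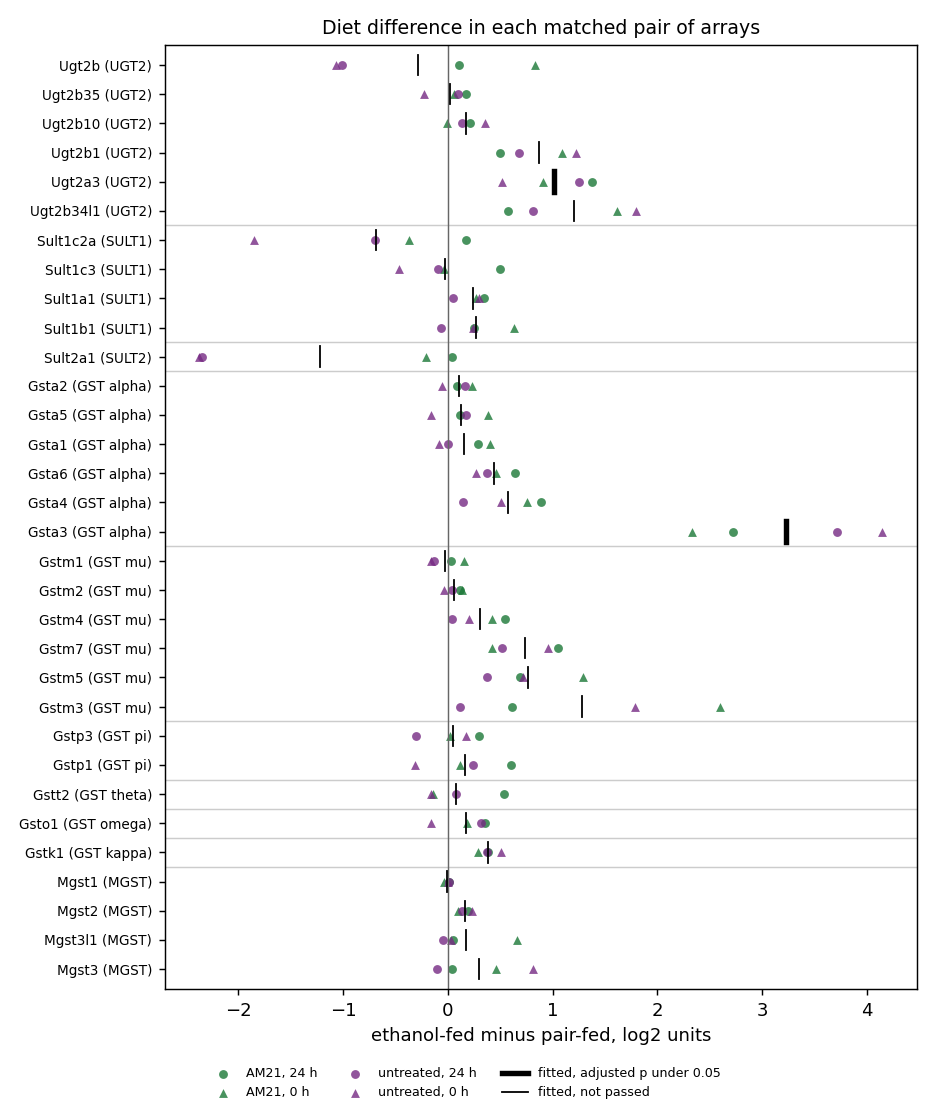
Ethanol-fed minus pair-fed difference (log2 units, x axis) in each of the 4 matched pairs of arrays for the 32 tested members, listed by family on the y axis. Green marks AM21 and purple untreated pairs, circles 24 h and triangles 0 h, and the vertical tick is the fitted difference, thick where the adjusted p was under 0.05. Only Gsta3 and Ugt2a3 (1.01) have thick ticks. Of the 32 ticks 26 lie right of 0, where 4679 of all 8690 genes had a positive estimate. The pair-fed means of Gsta3 and Gstm3 are under the level minimum.

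The diet fit treated the 8 arrays as independent. With the replicate block taken into account by pool means, 6 members passed, Gsta3, Gstm3, Gstm7, Ugt2a3, Ugt2b1 and Ugt2b34l1, all higher in ethanol-fed livers, as did 102 of all 8690 genes. Gsta3 lost its call without the ethanol-fed AM21 24 h array (adjusted p = 0.0514), the pair-fed untreated 0 h array (0.077) or the pair-fed untreated 24 h array (0.0601). With 1 array left out, Ugt2a3 kept its call only without the ethanol-fed untreated 0 h array (adjusted p = 0.0457). Leaving out any other array gave an adjusted p between 0.055 and 0.131. The call of Ugt2a3 was also lost with no level minimum and after quantile normalization. With the 0 h arrays alone its adjusted p was 0.108. With the 24 h arrays alone neither Ugt2a3 nor Gsta3 passed (adjusted p = 0.0758 for each).

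With ethanol, none of the 5 genes for UDP-glucuronate supply, 10 for activated sulfate, 9 for glutathione or 21 for regulators passed. Ahr came closest among the receptor genes at 0.59 ± 0.10 (adjusted p = 0.061), while Nr1i3, Nr1i2 and Nfe2l2 were at 0.41 ± 0.23, -0.17 ± 0.13 and 0.03 ± 0.17. Of 19 classic targets of CAR, PXR, AhR and NRF2, 4 were higher and 0 lower. The retinal dehydrogenase gene Aldh1a1 was higher by 1.49 ± 0.11. The other 3 had pair-fed means under the level minimum and reached it only through their ethanol-fed arrays. The sizes of their differences are uncertain, and nothing is read from the count of 4. Mean levels of Cyp2b1 were 7.29 with ethanol and 4.39 with pair feeding, those of the carboxylesterase gene Ces2e 6.95 and 4.96, and those of Abcc3, the pump that exports glucuronides to blood, 6.40 and 4.91. Of 8 male-biased genes 1 was lower, Car3 at -2.34 ± 0.19, and of 4 female-biased genes 2 were higher, Prlr at 1.81 ± 0.22 and Cyp2a1 at 0.87 ± 0.12. Of 13 other phase II genes 1 was higher, Acsm5 at 1.49 ± 0.14. Of 8 hepatocyte markers none passed. Of 12 Kupffer cell markers 2 were higher (Marco and Cd5l), with list levels of 7.75 to 7.92 on ethanol-fed and 7.21 to 7.48 on pair-fed arrays, and their part in the members' differences was not tested.

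The third comparison set AM21 against untreated livers, averaged over diet and time. No member passed, and neither did any of the 8690 genes (0%) in limma. At an unadjusted p under 0.05 there were 3 of 32 members and 538 of 8690 genes, and with all two-way interactions in the fit 8 genes passed, none of them a member. The median estimate was 0.03 over the members and -0.03 over all genes. The 3 members were Gstk1, at 0.33 ± 0.08 (adjusted p = 0.691), Ugt2a3, at -0.55 ± 0.14 (adjusted p = 0.691), and Ugt2b34l1, at -0.70 ± 0.20 (adjusted p = 0.696), each with the same sign in 4 of 4 pairs. In all, 3 members were higher in 4 of 4 pairs and 3 lower, against 4.4% and 11.2% of all genes, or 15.6% in either direction. Mgst1 was the 1 member whose groups did not overlap, at 11.80 ± 0.02 in AM21 and 11.75 ± 0.02 in untreated livers, against 1.62% of all genes, and its adjusted p was 0.963.

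Gstk1 had levels of 9.89, 9.88, 9.51 and 9.60 in AM21 livers, against 9.51, 9.71, 9.14 and 9.20 in untreated livers, in the order ethanol-fed at 24 h, ethanol-fed at 0 h, pair-fed at 24 h and pair-fed at 0 h. The groups overlapped, and within each the ethanol-fed arrays were the higher. Gstp3 was at 0.37 ± 0.24 (adjusted p = 0.893), and its sign turned to -0.24 with the 0 h arrays alone. Sult1c2a was at 0.40 ± 0.30 and Sult2a1 at -0.47 ± 0.43, with adjusted p of 0.902 and 0.923.

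The last comparisons asked whether the change after PHx differed with diet or with AM21. For diet, 1 of 32 members passed with a negative difference and 0 with a positive one, against 0.46% and 0.069% of all genes, or 0.529% in either direction. Gstm3 changed by -1.17 and -0.24 in the ethanol-fed pools and by 0.81 and 1.44 in the pair-fed pools, AM21 pool first in each. The fitted difference between the diets in the change was -1.83 ± 0.20 (adjusted p = 0.01). The gene was tested only through its ethanol-fed arrays, and at 0 h the pair-fed arrays stood at 4.15 and 3.94, under the level minimum. The size of their change is uncertain, and nothing is read from this 1 call against the share of all genes. The call was lost without the level minimum (adjusted p = 0.0864) and with no replicate block (0.135). In the same comparison 5 of 8 cell division markers passed, all lower, with a list median of -1.86, and their part was not tested. In that list Cdk1, Ccnb1 and Mki67 were under 5 in both pair-fed pools at 0 h. The size of that median is therefore uncertain, and nothing is read from the count.

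Ugt2b34l1 went the same way without passing, at -1.01 ± 0.20 (adjusted p = 0.0886), with changes of 0.01 and -0.09 in the ethanol-fed pools and 1.06 and 0.89 in the pair-fed pools. On the positive side, Sult1c2a was at 0.85 ± 0.22 (adjusted p = 0.184) and Ugt2a3 at 0.61 ± 0.20 (adjusted p = 0.298).

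For AM21, no member and none of the 8690 genes passed (0%) in limma, with 6 of 32 members and 604 of 8690 genes at an unadjusted p under 0.05. The member with the largest estimate was Gstp3. It changed by -1.17 and -1.44 in the AM21 pools and by -2.75 and -2.27 in the untreated pools, ethanol-fed pool first in each, a difference of 1.21 ± 0.24 (adjusted p = 0.242). That estimate did not pass. Gsta3 was at 1.01 ± 0.25 (adjusted p = 0.374), Sult2a1 at 0.70 ± 0.20 (adjusted p = 0.525) and Gstm3 at -0.78 ± 0.20 (adjusted p = 0.445), Gsta3 and Gstm3 with pair-fed means under 5. These fits leave 1 residual degree of freedom before moderation.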

How the data were processed

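Liver RNA was pooled and hybridised to 8 Affymetrix arrays, 1 per combination of diet, AM21 treatment and time. The authors deposited log2 values from RMA and Expression Console (the submitters' processing notes name both tools, with no version known here). They ran from 0.481 to 13.3, with array medians between 4.11 and 4.23. Because RMA gives all arrays one distribution, a common shift of most genes is removed, and no detection calls come with it. Precision is limited by there being 4 pools, since arrays carry no depth.

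Of 36685 probe sets, 18511 carry 1 symbol, 575 several and 17599 none in the platform table, and 18394 were found in the RefSeq gene table. No member has more than 1 probe set. For other genes the probe set of highest mean was used. Probes of paralogs can share signal. Probe sets that name several genes (7 in these families) were left out of the tests.

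Models were fitted with limma 3.58.1 (R 4.3.3), after a check on simulated arrays, with Benjamini-Hochberg adjustment. The PHx response had the pool as a fixed block: per the labels, both tissues of a pool carry the same animal identifiers. Diet and AM21 were fitted additively with time. A correlation of -0.371 between the arrays of a pool was estimated and replaced by 0, so these p-values count 8 arrays where 4 pools exist. Interactions with PHx had the pool as a fixed block.

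The members and lists were chosen with earlier results of these data known. Named were all members past the threshold and, on a side with fewer than 3, the largest estimates up to 3. Other members near the threshold were named after their values were seen. Alternatives were other level minimums, the mean of a gene's probe sets, quantile normalization, fits with and without the replicate block, all two-way interactions, single times and leaving out each pool or array. The diet by AM21 interaction was added after the data were seen.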

Additional observations from a re-analysis of the deposited data

Results flagged for a closer look

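In the ethanol-fed AM21 pool, the Mgst3l1 change after PHx was -1.40, against -0.90, -0.79 and -0.82 in the ethanol-fed untreated, pair-fed AM21 and pair-fed untreated pools. Its gap to the nearest pool is 0.831 of the range, just above Dixon's critical value for 4 samples. The 32 tested members were screened this way and 1 stood out; chance singles out about 1 in 20 groups.

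The change of Gstm3 after PHx differed between the diets by -1.83 ± 0.20 (limma, adjusted p = 0.01): both ethanol-fed pools were lower at 24 h than at 0 h, and both pair-fed pools were higher. The gene was tested only through its ethanol-fed arrays, the pair-fed 0 h arrays stood at 4.15 and 3.94, under the level minimum, and the adjusted p was 0.0864 without that minimum and 0.135 with no replicate block.

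The diet difference of Sult2a1 differed between AM21 and untreated livers by 2.27 ± 0.20 in the fit with all two-way interactions (limma, adjusted p = 0.0212). That test was chosen after the values had been seen, each combination of diet and treatment is 1 pool, and the pair-fed untreated pool, at 9.55 and 10.28, stands apart from the other 3. The adjusted p was 0.755 without the interactions with time and 0.116 without the level minimum.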

How the results depend on the processing

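Of the alternatives for the 18 members named for PHx, 142 values kept their side of the threshold, 17 lost it, 2 gained it and 0 changed direction. The members past the threshold numbered 11 to 13 with a pool left out, and 16 with no replicate block. Over all genes the PHx count was 2443, and 1466 to 1705 with a pool left out. For diet, 2 members passed, against 1 with no level minimum, with a minimum of 6 or after quantile normalization, 6 with the replicate block by pool means, 10 with all two-way interactions (8 higher and 2 lower), 4 with the 0 h arrays alone, 0 with the 24 h arrays alone and 0 to 2 with an array left out. Over all genes the diet count was 40, against 11, 102, 285, 101, 0 and 0 to 18 with no minimum, pool means, two-way interactions, 0 h alone, 24 h alone and an array left out. For AM21 the count was 0 in these fits except 8 genes with all two-way interactions. The AM21 estimate of Gstp3 reversed to -0.24 with the 0 h arrays alone. For PHx by diet, 1 member and 46 genes passed. With no minimum this was 0 and 0, with a minimum of 6 it was 0 and 16, and with no replicate block it was 0 and 2. After quantile normalization 27 genes passed. The cause of these shifts was not tested. Gsta3 and Gstm3 are below the minimum of 6 and reached the minimum of 5 only through their ethanol-fed arrays. They are in several of the diet counts, so nothing is read from those counts. The fits at a single time have 4 arrays. The block is taken from the animal identifiers and changed no other call than those named here and the call of Gsta2 after PHx, which passed without it. Each array is 1 pool, so differences between animals are not covered by any p-value, and levels under 5 were not shown to exceed background.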

Other observations

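In these families 7 probe sets carry several gene names and were not tested. The UGT1 probe set, with 8 names that include the bilirubin-conjugating Ugt1a1, stood at 9.72, 9.68, 9.36 and 9.14 in 24 h livers, against 9.45, 9.55, 9.36 and 9.28 in 0 h livers, for the ethanol-fed AM21, ethanol-fed untreated, pair-fed AM21 and pair-fed untreated pools. Its mean difference after PHx was 0.07, and it was higher in ethanol-fed than in pair-fed livers in all 4 matched pairs, by 0.10 to 0.54. The 2 probe sets shared by Ugt2b15 and Ugt2b37 were lower at 24 h in all 4 pools, with mean differences of -0.58 and -0.63. One of the 2 shared by the class theta genes Gstt1 and Gstt3 had levels of 8.22, 7.96, 8.30 and 8.95 in ethanol-fed livers, against 7.42, 7.06, 7.59 and 7.50 in pair-fed livers, in the order AM21 at 24 h, AM21 at 0 h, untreated at 24 h and untreated at 0 h. The second of the 2 differed by 0.21 on average. The probe set of the estrogen sulfotransferase gene Sult1e1, listed there under a repeated name, was higher at 24 h in all 4 pools, by 0.12 to 0.28.

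Of 5 tested genes that share a fold or a family name with the members but lie outside the rule, 2 rose after PHx: Clic1, a chloride channel protein with a glutathione transferase fold, by 0.72 ± 0.09, and the translation elongation factor gene Eef1g by 0.48 ± 0.08 (limma, adjusted p of 0.0025 and 0.00812). None of the 5 passed for diet.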
